A study of Rattus norvegicus with 49 samples.

Results

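The genes of MHC class II antigen presentation were examined in thyroid tissue of rats injected with radioactive iodine (131I). The set holds 9 genes of 15154 with a symbol on the array, namely RT1-Ba, RT1-Bb, RT1-Da, RT1-Db1, RT1-DMa, RT1-DMb, RT1-DOb, Cd74 and Ciita. The genes were chosen by the difference in RT1-Bb between exposed and control rats 9 months after injection, so values from that comparison are a description without a test. Every non-control probe whose RefSeq accession belongs to one of these genes was taken, each probe apart, which gave 11 probes of 30367. A probe was tested if at least 3 of 49 arrays showed it well above background, which left 10. The probe of RT1-Ba (A_44_P128248) was not well above background on any of the 49 arrays, so only its bound is known.

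All rats were male Sprague Dawley rats, an outbred stock, and each array held Cy3-labelled total RNA from the thyroid of 1 rat. Rats injected young received 131I at 5 weeks of age. They were killed 3 months after 50 kBq (4 arrays), 6 months after 50 kBq (4 arrays), or 9 months after 0.5, 5, 50 or 500 kBq (4, 3, 4 and 4 arrays). Rats injected as adults received 50 kBq at 17 weeks of age and were killed after 3, 6 or 9 months (4 arrays each). Untreated controls were 4, 7, 10 and 13 months old (4, 3, 4 and 3 arrays), and each exposed group was compared with controls of its own age. By design a group had 4 rats, and the 3 groups with 3 arrays are analysed here as they stand. The tissue was excised whole, so other cells of the gland and its surroundings are part of each sample.

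MHC class II molecules display peptides from ingested proteins to helper T cells. Dendritic cells, macrophages and B cells carry them constitutively, and other cells, thyroid follicular cells among them, can be induced to carry them by interferon gamma. RT1-Ba and RT1-Bb encode the alpha and beta chains of the RT1-B molecule, and RT1-Da and RT1-Db1 those of RT1-D. Cd74 encodes the invariant chain, which blocks the peptide groove until the molecule reaches the endosome. RT1-DMa and RT1-DMb encode the 2 chains of the RT1-DM molecule that loads the peptide, and RT1-DOb a chain of RT1-DO, which restrains RT1-DM. Ciita encodes the coactivator that switches the class II promoters on. The classical class II genes are among the most polymorphic genes of the genome.

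A class II promoter is recognised by its X box, bound by RFX proteins, followed by a Y box, bound by NF-Y, and Ciita acts on the proteins bound there. The stretches that hold both motifs are shown because the genes below varied together among rats. RefSeq promoters of the GRCr8 build, 250 bases before to 50 bases after the gene start, were found for 7 of the 9 genes, all but RT1-DMb and Ciita. Capitals mark the X motif ACNGATG, taken from the core of the X box, and the Y motif GATTGG, both searched on both strands and not overlapping each other. The X motif was spelled after these promoters had been read, so its presence in them is no finding.
RT1-Da (chr20:4515295-4515384, + strand): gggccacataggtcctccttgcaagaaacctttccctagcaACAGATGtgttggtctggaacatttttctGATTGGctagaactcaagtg
RT1-Db1 (chr20:4560224-4560313, - strand): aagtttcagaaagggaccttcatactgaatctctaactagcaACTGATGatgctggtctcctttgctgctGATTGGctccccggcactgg
RT1-Bb (chr20:4604161-4604250, - strand): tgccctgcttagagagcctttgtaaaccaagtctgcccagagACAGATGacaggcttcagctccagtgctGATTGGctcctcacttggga
RT1-DOb (chr20:4627588-4627677, - strand): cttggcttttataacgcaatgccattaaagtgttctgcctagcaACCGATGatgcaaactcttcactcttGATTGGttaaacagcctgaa
RT1-DMa (chr20:4712381-4712470, - strand): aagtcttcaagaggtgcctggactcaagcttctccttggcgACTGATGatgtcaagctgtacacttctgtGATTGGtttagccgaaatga

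The Y motif ended 44, 75, 56, 78 and 59 bases before the start of RT1-Da, RT1-Db1, RT1-Bb, RT1-DOb and RT1-DMa, with 22, 21, 21, 19 and 22 bases between the X and the Y motif. The promoter of RT1-Ba held the Y motif but not these letters of the X motif, and that of Cd74 held neither. Of 33469 rat promoters of the same length, 10.2% held the X motif, 14.8% the Y motif and 0.128%, or 43 promoters, an X motif followed by a Y motif within 40 bases. Among the 43 were the 5 shown here and that of RT1-Db2, a further RT1-D beta gene. A match describes the letters and is no proof that a protein binds there.

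Levels are given as the log2 of the processed signal minus the 75th percentile of the array (log2 signal). A probe's level can be compared between arrays, but not with the level of another probe, since probes bind with different strength. On 48 arrays this percentile was a signal between 783 and 4172, and 69.2% to 82.5% of the spots were well above background. Replicate 2 of the young 50 kBq group at 3 months was far weaker, with a percentile of 61.0 and 43.1% of its spots well above background. Thyroglobulin (Tg), the precursor of the thyroid hormones, had a log2 signal of 0.14 on replicate 3 of the same group and of -0.69 on replicate 2 of the 7-month controls, against 6.41 to 7.91 on the 46 arrays that remain without these 3. The transcription factor Pax8, which defines thyroid follicular cells, lay at -8.14 and -6.12 on these 2 arrays and between -0.09 and 3.82 on the 46. The arrays that stand apart are therefore named wherever a result rests on them. No array was a copy of another, with correlations between 0.707 and 0.994 over the tested probes.

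Cd74 was well above background on 49 of 49 arrays, with a log2 signal between 0.85 and 3.17 and a median of 2.43. In controls its mean was 2.15 ± 0.52 (SD, n = 4) at 4 months, 1.79 ± 0.90 (SD, n = 3) at 7 months, 2.08 ± 0.25 (SD, n = 4) at 10 months and 2.35 ± 0.81 (SD, n = 3) at 13 months. The lowest of the 49 values, 0.85, belonged to replicate 2 of the 7-month controls, which was low in Tg and Pax8, and the highest to a rat given 0.5 kBq. In exposed groups the mean ranged from 2.28 ± 0.30 (SD, n = 4) in adults 6 months after 50 kBq to 2.63 ± 0.27 (SD, n = 4) in young rats 9 months after 500 kBq. Each exposed group overlapped the controls of its age, except that the 3 values at 5 kBq, from 2.51 to 2.81, lay above the 4 values of the 10-month controls, from 1.87 to 2.43. A bulk sample with fewer cells of a type and one with less RNA per cell cannot be told apart by these values.

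**Figure D1:**
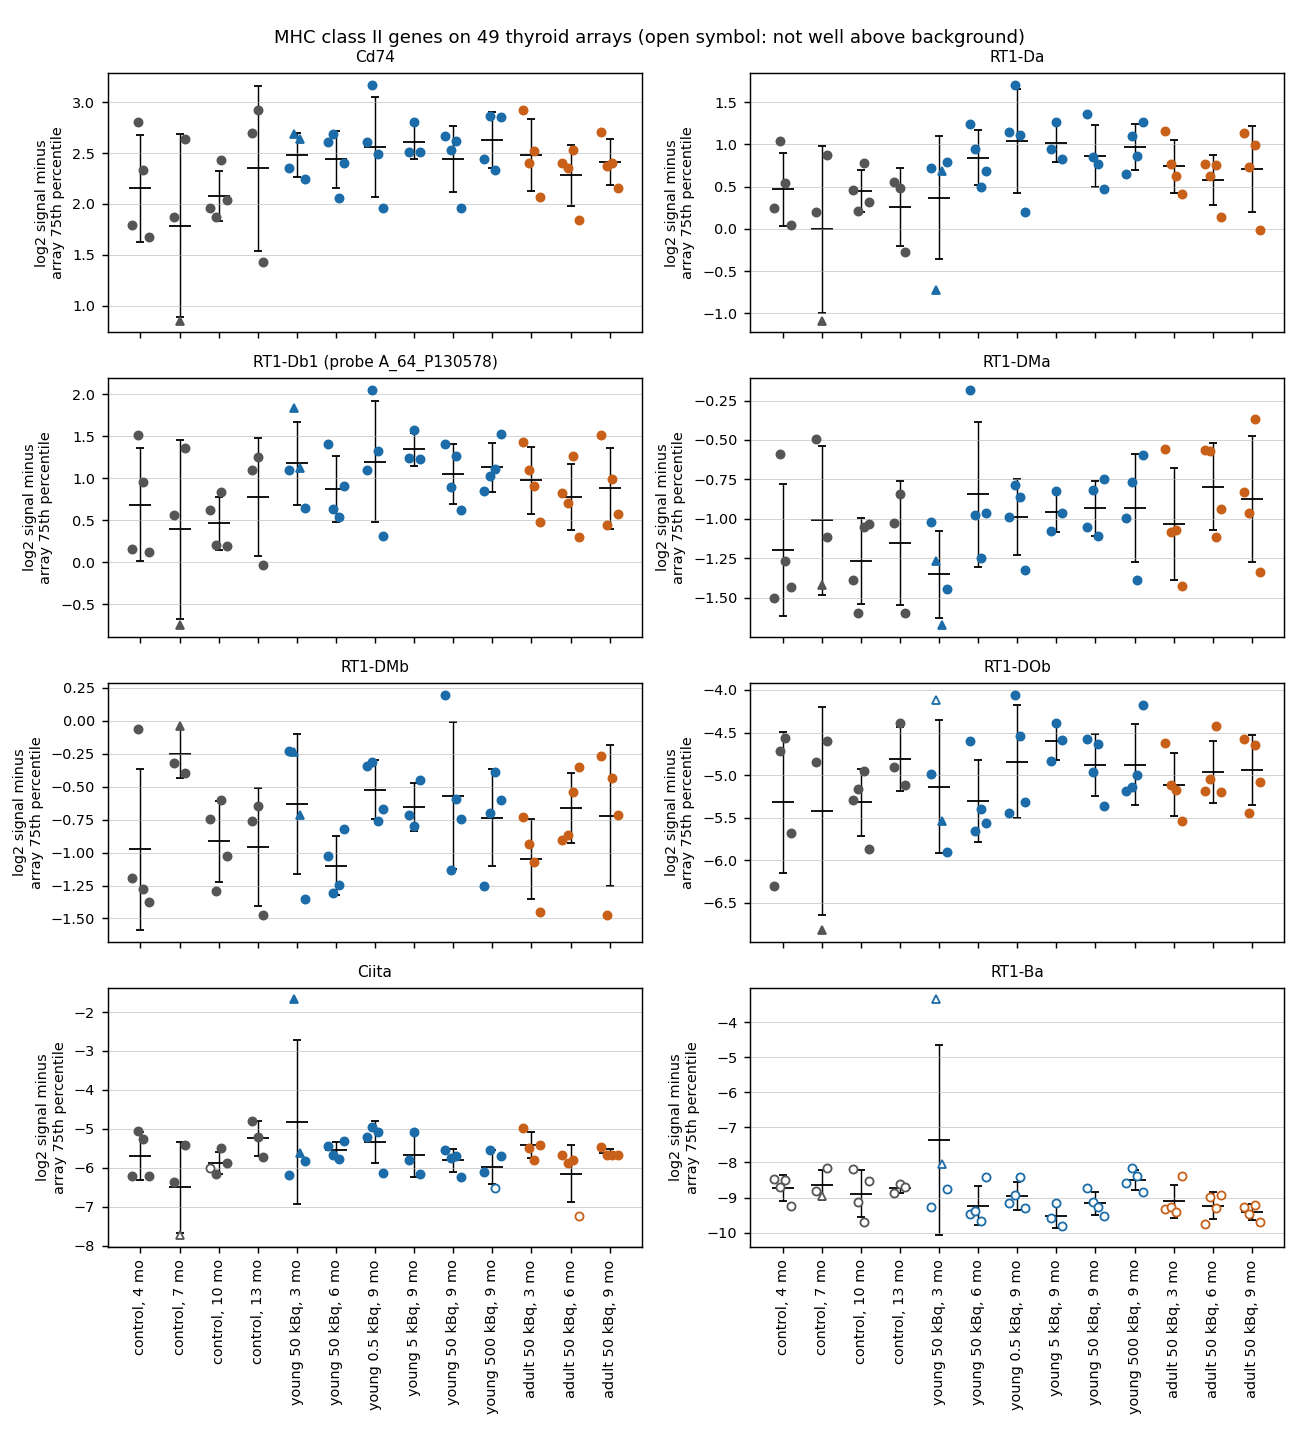
Log2 signal (minus the array's 75th percentile) of 8 MHC class II probes on 49 arrays in 13 groups of untreated controls (grey), rats injected young (blue) and rats injected as adults (orange), with the group mean (horizontal line) and SD (bars). Triangles are the 3 arrays that stand apart, open symbols were not well above background, and exposed rats and controls overlap in every panel. RT1-Ba has open symbols on all 49 arrays.

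The chains of RT1-D were also measured on all arrays. RT1-Da ranged from -1.09 to 1.70, with its lowest group mean of -0.01 ± 0.99 (SD, n = 3) in 7-month controls and its highest of 1.04 ± 0.62 (SD, n = 4) at 0.5 kBq. The RT1-Db1 probe A_64_P130578 ranged from -0.75 to 2.06, with group means between 0.39 ± 1.07 (SD, n = 3) in 7-month controls and 1.35 ± 0.20 (SD, n = 3) at 5 kBq. Both probes were lowest on the same array as Cd74, replicate 2 of the 7-month controls, and highest on the same array, replicate 2 of the 0.5 kBq group.

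The loading molecules had the following values. RT1-DMa ranged from -1.67 to -0.18 with a within-group SD of 0.34, which lay at percentile 24.7 of the 25284 tested probes, and RT1-DMb ranged from -1.47 to 0.20 with an SD of 0.40, at percentile 34.2. Cd74 and RT1-Da had SDs of 0.42 and 0.48, and without the 3 arrays that stand apart the SD was 0.34 for RT1-DMa, 0.41 for RT1-DMb, 0.39 for Cd74 and 0.39 for RT1-Da. RT1-DOb was dimmer, between -6.82 and -4.05, and was well above background on 48 arrays. Ciita was well above background on 45 arrays. Its 14 control values lay between -7.72 and -4.81, and its highest value, -1.68, belonged to the weak array. For 8 of the 10 tested probes, the largest step between neighbouring group means was smaller than the median SD of a group. The exceptions were both probes of RT1-Bb. Neighbours here are neighbours in the order of 13 means, where steps are small, so this does not bear on groups matched by age or exposure.

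RT1-Bb, the beta chain of RT1-B, was read by 2 probes that carry the same RefSeq accession, and their values differed from rat to rat. Probe A_44_P552452 was well above background on 44 arrays and not on 5. These 5 arrays were replicate 4 of the 10-month controls at -8.54, replicate 2 of the young 50 kBq group at 6 months at -9.46, replicate 1 of the adult group at 3 months at -9.13, and replicates 2 and 4 of the adult group at 9 months at -9.61 and -9.24. On the other arrays, leaving out the weak one, the same probe lay between -1.23 and 2.10.

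The second probe, A_64_P043911, did not fall on those 5 arrays. It read 0.57, 0.76, 1.83, 0.71 and 0.98 on them in the same order, against -1.37 to 1.19 on the 43 others, so the thyroids that lacked signal at the first probe were not low at the second. The within-group SD was 3.01 for A_44_P552452, at percentile 99.7 of the tested probes, and 0.59 for A_64_P043911, at percentile 55.2. Cd74 read between 2.04 and 2.92 on the 5 arrays, inside its range on the others.

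**Figure D2:**
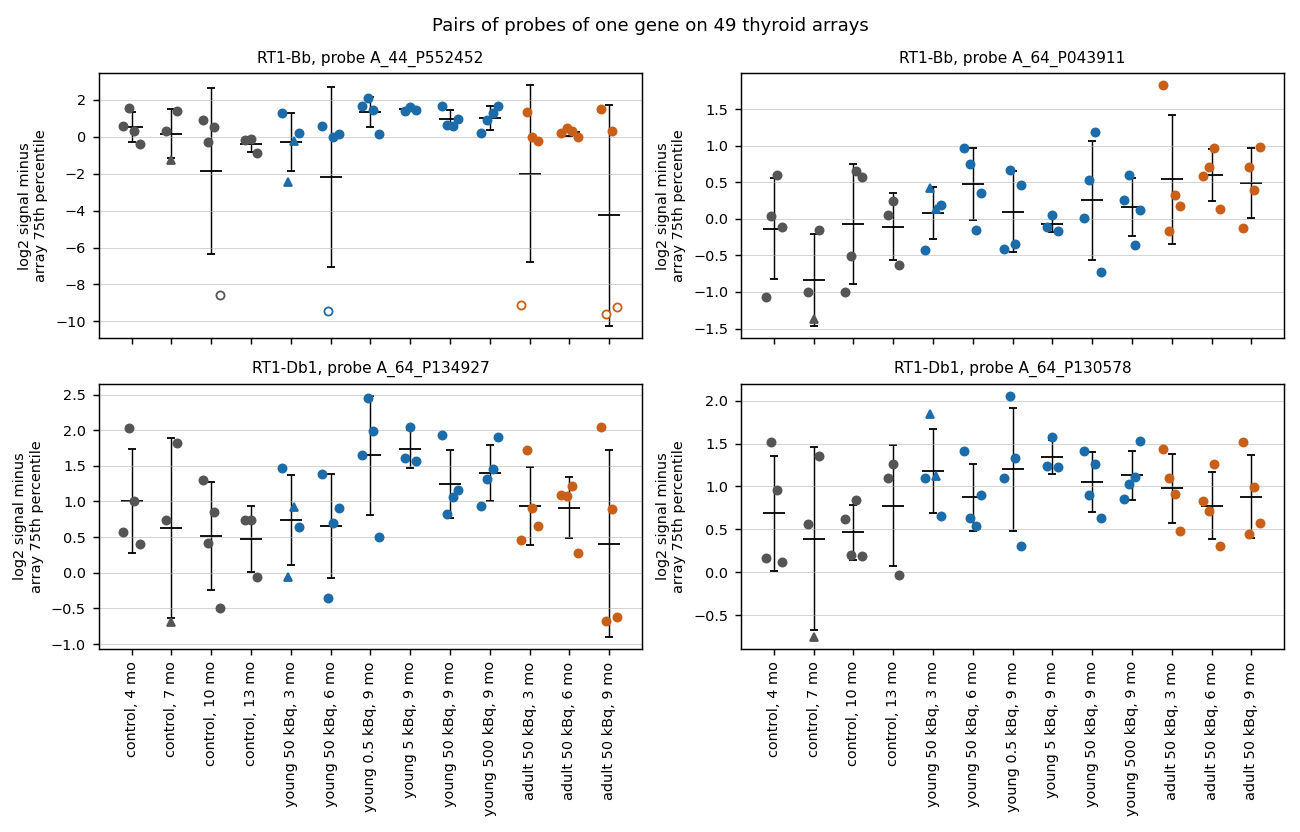
Log2 signal (minus the array's 75th percentile) of the 2 probes of RT1-Bb (top) and of RT1-Db1 (bottom) on 49 arrays by group, with the group mean (horizontal line) and SD (bars). The first RT1-Bb probe has 5 open symbols (not well above background) near -9 in 4 groups, controls included, while the second probe is well above background on all arrays.

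The difference between the RT1-Bb probes, A_44_P552452 minus A_64_P043911, fell into separate ranges, of which only the change between arrays can be read. It lay between -10.96 and -9.11 on the 5 dim arrays, between -0.64 and 0.31 on 25 arrays, and between 1.32 and 2.06 on 18 arrays, and no array lay between these ranges except the weak one at -2.85. On the 5 dim arrays the first probe was not well above background, so their differences are only upper bounds. RT1-Db1, which also has 2 probes of 1 accession, showed the same arrays apart: A_64_P134927 minus A_64_P130578 lay between -1.19 and -0.68 on the 5 arrays, between -0.51 and 0.36 on the 25 and between 0.18 and 0.67 on the 18. For RT1-Db1 the ranges of the 25 and the 18 arrays overlapped. The rats' RT1 haplotypes are not given in the labels, and their part in these ranges was not tested.

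**Figure D3:**
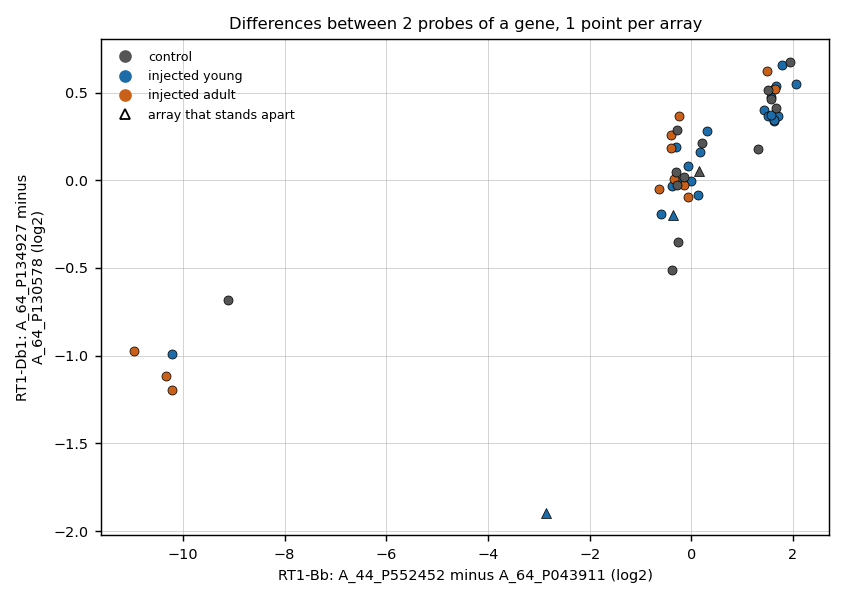
Difference between 2 probes of RT1-Bb (x axis, log2) against the difference between 2 probes of RT1-Db1 (y axis, log2), 1 point per array for 49 arrays, coloured by controls, rats injected young and rats injected as adults, with triangles for the 3 arrays that stand apart. The points form a cluster of 5 at the left, 1 of 25 near 0 and 1 of 18 at the upper right, and the weak array lies alone near the bottom.

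Over the 25 and the 18 arrays the first RT1-Bb probe had a Pearson's r with Cd74 of 0.759 and 0.950, given as a description. These r are of levels across groups, not of deviations from group means. Controls and exposed rats were found in each range. The upper range held 5 of the 14 control arrays (2 of 4 at 4 months, 2 of 3 at 7 months, 1 of 4 at 10 months and 0 of 3 at 13 months). Of the rats killed 9 months after injection when young, it held 3 of the 4 given 0.5 kBq, all 3 given 5 kBq and 2 of the 4 in both the 50 kBq and the 500 kBq group. In young rats it held 1 of 4 at 3 months and 0 of 4 at 6 months, and in adults 1 of 4, 0 of 4 and 1 of 4 at 3, 6 and 9 months.

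In young rats killed 9 months after injection, the RT1-Bb probe that led to the choice of these genes showed a log2 fold change of 3.18, 3.34, 2.81 and 2.87 at 0.5, 5, 50 and 500 kBq against the 10-month controls. At the second probe of the same gene the log2 fold change was 0.17, -0.001, 0.33 and 0.23. The 4 comparisons share the same 4 controls, and no test is read from them. The controls read 0.93, -0.30, 0.52 and -8.54 at the first probe, so 1 rat set most of their mean: without replicate 4 of the controls the log2 fold changes were 0.95, 1.11, 0.58 and 0.64. At the second probe the controls read -1.005, -0.51, 0.66 and 0.57, and replicate 4 was not low.

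The other members had mostly positive values in this comparison. Cd74 read 1.96, 1.87, 2.43 and 2.04 in the 10-month controls. Rats given 0.5 kBq had 2.61, 3.17, 2.49 and 1.96, those given 5 kBq 2.51, 2.81 and 2.51, those given 50 kBq 2.66, 2.53, 2.62 and 1.96, and those given 500 kBq 2.45, 2.86, 2.34 and 2.86. Most exposed arrays lay above 3 of the 4 controls. RT1-Db1 at A_64_P130578 read 0.62, 0.20, 0.84 and 0.19 in these controls, from 0.31 to 2.06 at 0.5 kBq, from 1.23 to 1.57 at 5 kBq, from 0.63 to 1.41 at 50 kBq and from 0.85 to 1.53 at 500 kBq. The log2 fold change at 0.5, 5, 50 and 500 kBq was 0.48, 0.53, 0.36 and 0.55 for Cd74, and 0.59, 0.57, 0.42 and 0.52 for RT1-Da. It was 0.73, 0.88, 0.59 and 0.67 for RT1-Db1 at A_64_P130578, and 1.13, 1.22, 0.73 and 0.88 at A_64_P134927. At A_64_P134927 the controls read 1.29, 0.42, 0.85 and -0.49, and the lowest was again replicate 4, which lowers their mean. In the scan that held replicate 3 as the only control, the differences at this probe were -0.35, 0.71, 0.09 and 0.46. The loading genes RT1-DMa and RT1-DMb had log2 fold changes between 0.28 and 0.33 and between 0.18 and 0.39, RT1-DOb between 0.44 and 0.72, and Ciita 0.54, 0.20, 0.08 and -0.08. The median over the 10 probes was 0.51, 0.55, 0.39 and 0.48, against -0.003, -0.02, 0.04 and 0.06 over all 25284 probes.

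Since the comparison at 9 months chose the genes, its counts are given with nothing read from them. By the study's cut-offs, a Benjamini-Hochberg adjusted p under 0.01 in limma and a fold change above 1.5, 0 of 10 member probes were called at each of the 4 activities, against 0%, 0.0119%, 0.0119% and 0% of all probes. The exposed arrays lay above all 10-month controls for 6 of the 10 probes at 5 kBq (Cd74, RT1-Bb at A_44_P552452, RT1-Da, both probes of RT1-Db1 and RT1-DOb), where this held for 8.55% of all probes, and for 1 of the 10 at 500 kBq (RT1-Db1 at A_64_P130578), against 2.33% of all probes. It held for 0 of 10 at the 2 other activities, 0.5 and 50 kBq, against 0.57% and 2.74%. Within scan dates the direction was not uniform: for Cd74 at 0.5 kBq the difference was 0.80 in the scan with 3 exposed and 3 control arrays and -0.47 in the scan with 1 of each. At 50 kBq it was 0.35 and 0.14 within scans, at 5 kBq 0.85 and 0.08, and at 500 kBq 0.43 in the only scan that held both groups.

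The effect of 50 kBq was then tested in exposed groups that the choice of genes did not use, against controls of the same age. Adults at 6 months shared the 10-month controls, with the dim replicate 4, with the comparison that chose the genes. In all 5 of these comparisons 0 of 10 member probes were called by limma. Among all probes 0.0119% were called in young rats at 3 months, 0% in young rats at 6 months, 0% in adults at 3 months, 0% in adults at 6 months and 0.558% in adults at 9 months. An unadjusted p under 0.05 was reached by 0, 3, 4, 0 and 0 of the 10 probes in this order, against 37.9%, 6.56%, 4.74%, 0.791% and 21.9% of all probes. The young group at 3 months, with the share of 37.9%, holds the weak replicate 2 and replicate 3, which stand apart.

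**Figure D4:**
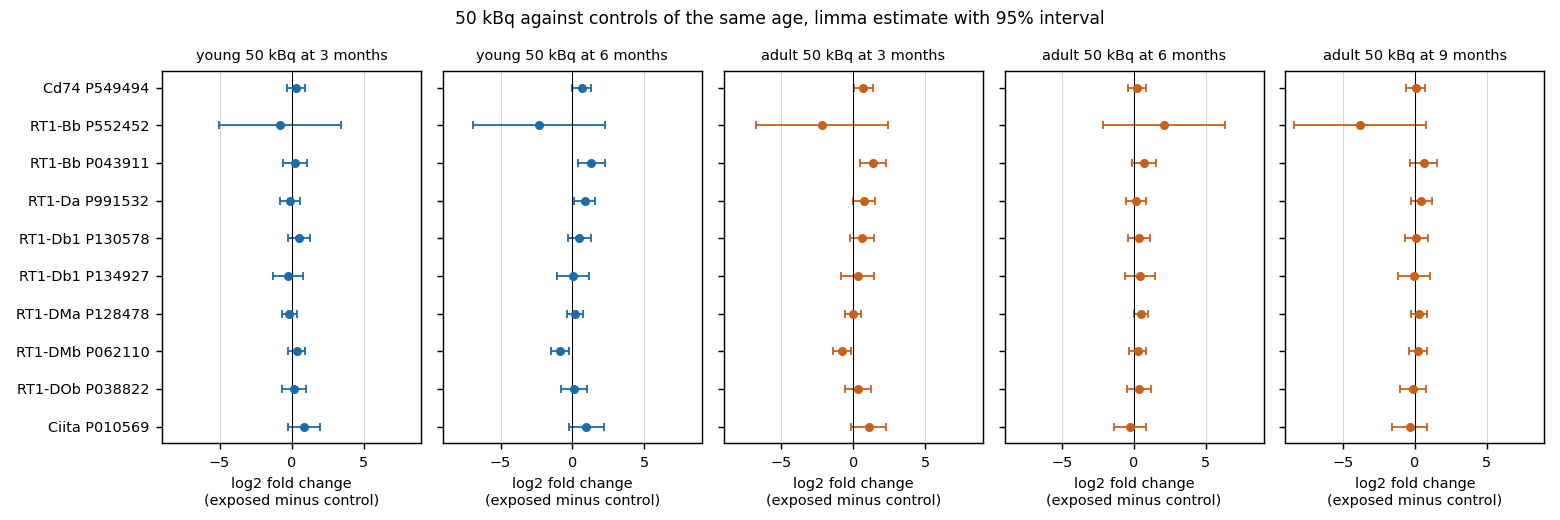
Log2 fold change (x axis, exposed minus control) of the 10 tested MHC class II probes (rows) with its 95% interval from limma, for 50 kBq in young rats after 3 and 6 months and in adults after 3, 6 and 9 months. The widest intervals belong to the first RT1-Bb probe, and the other intervals mostly include 0.

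In young rats 6 months after 50 kBq, the second RT1-Bb probe read 0.96, 0.76, -0.16 and 0.36, and the 7-month controls read -0.995, -1.37 and -0.15. The log2 fold change was 1.32 with a standard error of 0.44 (95% interval 0.41 to 2.23, limma adjusted p = 0.528). The groups overlapped at 1 array each, and without replicate 2 of the controls, which was low in Tg and Pax8, the difference was 1.05 (adjusted p = 0.906). RT1-DMb went the other way, with -1.02, -1.31, -1.24 and -0.82 in exposed rats and -0.32, -0.04 and -0.39 in controls. These groups did not overlap, and RT1-DMb was the 1 member of 10 for which this held, against 7.83% of all probes in either direction. The log2 fold change of RT1-DMb was -0.85 (standard error 0.31, adjusted p = 0.562), and -0.74 without that control. RT1-Da had a log2 fold change of 0.85 (limma adjusted p = 0.696) and Cd74 of 0.65 (adjusted p = 0.757), which were 0.31 and 0.18 without that control.

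Adults 3 months after 50 kBq were compared with the same 7-month controls, so the values stand beside those above and are no independent repeat. The second RT1-Bb probe read 1.83, -0.16, 0.33 and 0.18, with a log2 fold change of 1.38 (95% interval 0.47 to 2.30, limma adjusted p = 0.997). RT1-DMb read -0.73, -0.93, -1.07 and -1.45, with a log2 fold change of -0.79 (standard error 0.31, adjusted p = 0.997). Its groups did not overlap either, again as 1 member of 10, against 7.66% of all probes. In young rats at 3 months and in adults at 6 and 9 months this held for 0 of 10 members, against 5.41%, 4.07% and 26.1% of all probes. Cd74 and RT1-Da had log2 fold changes of 0.69 and 0.75, and of 0.22 and 0.21 without replicate 2 of the controls, so both differences rested on that array. The second RT1-Bb probe and RT1-DMb had 1.12 and -0.69 without it.

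No scan date held both young rats at 6 months and 7-month controls, so no within-scan value was obtained. With the scan date as a block, the second RT1-Bb probe had a log2 fold change of 1.83 (limma adjusted p = 0.445). Within the scan that held 2 arrays of adults at 3 months and 2 controls it was 1.40. Pan-leukocyte genes are given beside these results, among which RT1-DMb went the other way from the second RT1-Bb probe. The mean log2 signal of Ptprc, Itgb2, Coro1a and Laptm5 was -2.27, -2.95 and -1.36 in the 7-month controls, -1.42 to -1.06 in young rats at 6 months and -1.63 to -1.02 in adults at 3 months. Of the 11 macrophage genes tested, 9 had an unadjusted limma p under 0.05 in young rats at 6 months, against 6.56% of all probes. In adults at 3 months 5 did, against 4.74% of all probes. The list median was 0.86 and 0.59 on the log2 scale, where that of all probes was -0.11 in both comparisons. Both hold replicate 2 of the 7-month controls, which stands apart, and no list value without it is given. The part of leukocyte content in the differences was not tested.

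In adults at 6 months the log2 fold change was 0.20 for Cd74 (95% interval -0.41 to 0.82), 0.13 for RT1-Da, 0.47 for RT1-DMa and 0.67 for the second RT1-Bb probe. Within the 2 scan dates that held both groups, Cd74 differed by 0.44 and -0.34. In adults at 9 months it was 0.06 for Cd74 (95% interval -0.60 to 0.73), 0.45 for RT1-Da, 0.28 for RT1-DMa and 0.60 for the second RT1-Bb probe. The first RT1-Bb probe gave -3.84 at 9 months, a value set by 2 arrays of 4 on which it was not well above background. The other 2 arrays read 1.52 and 0.32, against -0.91 to -0.14 in the 13-month controls. In young rats at 3 months the log2 fold change was 0.33 for Cd74 and 0.21 for the second RT1-Bb probe, whose within-scan values were 0.68 and -0.25. For Ciita it was 0.86, with the weak array at -1.68 and the other 3 between -6.19 and -5.61.

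The difference between effects was tested directly. The effect of 50 kBq in young rats minus that in adults was called for 0 of 10 probes at 3 months and 0 of 10 at 6 months, as was the effect in adults at 9 minus 3 months, against 0% of all probes in each of these 3 comparisons. An unadjusted p under 0.05 was reached by RT1-DMb alone among the members in each of them, against 29.6%, 3.94% and 15.6% of all probes. The comparison at 3 months, with the share of 29.6%, holds all 3 arrays that stand apart. RT1-DMb differed by 1.14, -1.10 and 1.03 on the log2 scale, with limma adjusted p-values of 0.0853, 0.99984 and 0.251, and each of these differences includes the 7-month controls. The difference at 6 months also includes the 10-month controls that the choice of genes used.

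In untreated rats no class II probe was called with age. The comparison at 10 months and the slope hold the 10-month controls that the choice of genes used, so they are not independent of that choice. Against 4-month controls, 0 of 10 member probes were called at 7, 10 and 13 months, while limma called 0.00396%, 0.0119% and 5.15% of all probes. An unadjusted p under 0.05 was reached by 1, 0 and 0 members, against 7.63%, 3.64% and 34% of all probes. The 1 member was RT1-DMb, higher at 7 than at 4 months by 0.72 (adjusted p = 0.557). Cd74 differed by -0.36, -0.08 and 0.20 on the log2 scale at 7, 10 and 13 months (95% interval -0.47 to 0.86 at 13 months), RT1-Da by -0.48, -0.02 and -0.21, and RT1-DMa by 0.19, -0.07 and 0.04. Some differences were larger: Ciita differed by -0.81, -0.19 and 0.45, the second RT1-Bb probe by -0.70, 0.06 and 0.03, and RT1-Db1 at A_64_P134927 by -0.38, -0.48 and -0.53. The first RT1-Bb probe differed by -0.34, -2.36 and -0.93, where the value at 10 months includes the dim replicate 4. The values at 7 months rest in part on replicate 2 of the 7-month controls, which stands apart. It was the lowest of 49 arrays for Cd74, RT1-Da, Ciita and the second RT1-Bb probe. Within the scan that held 2 controls of each age, without that array, these 4 probes differed by 0.25, 0.24, -0.16 and -0.82 in this order. The slope on age over the 4 control groups was called for 0 of 10 members, against 3.23% of all probes, 0 members had an unadjusted p under 0.05, against 31.3%, and the slope was 0.03 log2 units per month for Cd74.

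Rats of one group differed from each other in a shared way. The deviation of Cd74 from its group mean correlated over 49 arrays with that of RT1-Db1 at A_64_P130578 (Pearson's r = 0.902, Spearman's rho = 0.855), RT1-Da (r = 0.764, rho = 0.759), RT1-DOb (r = 0.699, rho = 0.668) and Ciita (r = 0.602, rho = 0.795). The permutation p was between 1e-05, the smallest that 100000 permutations give, and 3e-05 for these r and rho (adjusted over 18 relations, at most 6e-05). The permutations exchanged deviations over all arrays, not within groups, and set r against 0. The share of all probes with such an r to Cd74 was not obtained. These p therefore do not set class II genes apart from other genes. RT1-DMa (r = 0.568, rho = 0.561, adjusted permutation p for r = 4.5e-05), the second RT1-Bb probe (r = 0.567, rho = 0.594, adjusted permutation p = 6.55e-05) and RT1-DMb (r = 0.379, rho = 0.380, adjusted permutation p = 0.00802) had lower values of r. Without the 2 arrays farthest from the median of Cd74 these r were 0.880, 0.717, 0.662, 0.571, 0.503, 0.547 and 0.402. RT1-Db1 at A_64_P134927 had r = 0.566 and rho = 0.515 (adjusted permutation p for r = 6.55e-05), and 0.507 without these 2 arrays. Over the 46 arrays left without the 3 that stand apart, r was 0.887 for RT1-Db1 at A_64_P130578, 0.531 at A_64_P134927, 0.883 for RT1-Da and 0.786 for Ciita.

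**Figure D5:**
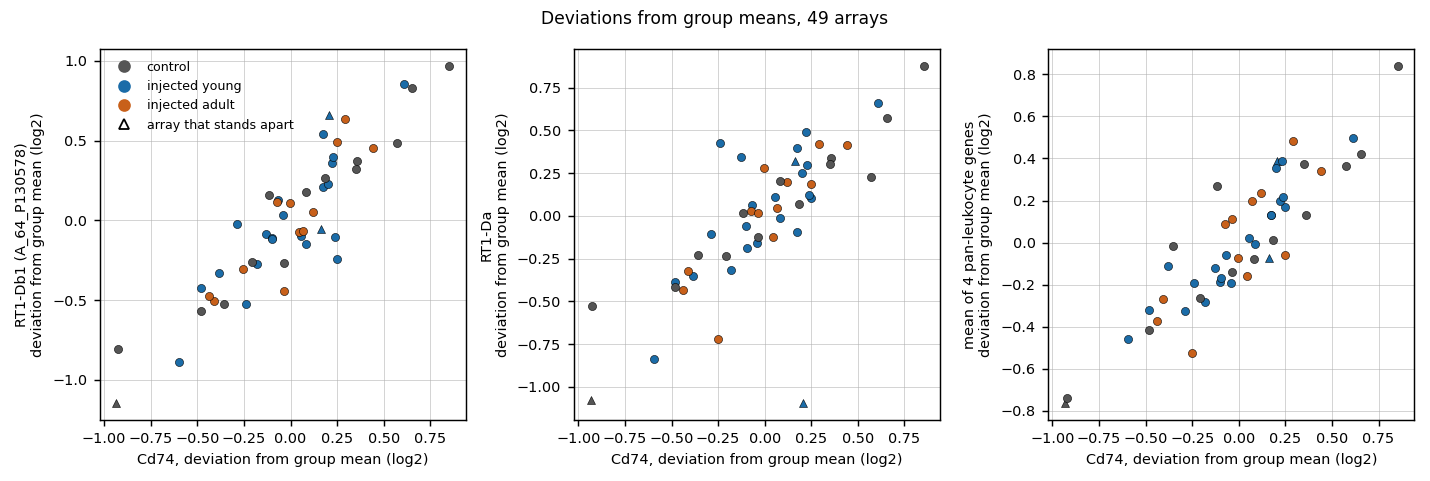
Deviation from the group mean (log2) of Cd74 (x axis) against that of RT1-Db1, RT1-Da and the mean of 4 pan-leukocyte genes (y axes) on 49 arrays, with colours for controls, rats injected young and rats injected as adults and triangles for the 3 arrays that stand apart. Points rise together in all 3 panels, with r of 0.902, 0.764 and 0.897.

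Lists of white blood cell genes followed Cd74 to different degrees, and the same limits hold for their permutation p. The mean of the 4 pan-leukocyte genes had r = 0.897 and rho = 0.873, and that of 11 macrophage genes r = 0.766 and rho = 0.729 (adjusted permutation p for r = 2.57e-05 for both). The mean of 15 genes of the interferon gamma response had r = 0.676 and rho = 0.649 (adjusted permutation p = 2.57e-05), that of 11 T cell genes r = 0.461 and rho = 0.656 (adjusted permutation p for r = 0.00159) and that of 7 B cell genes r = 0.212 and rho = 0.212 (adjusted permutation p = 0.141). Without the 2 farthest arrays these r were 0.864, 0.703, 0.591, 0.435 and 0.203, and over the 46 arrays they were 0.880, 0.746, 0.650, 0.726 and 0.070. The mean of 7 dendritic cell genes had r = 0.471 and rho = 0.598 (adjusted permutation p for r = 0.00102), with an r of 0.461 without the 2 farthest arrays and of 0.685 over the 46. Follicular thyrocyte genes had r = 0.422 (rho = 0.394, adjusted permutation p for r = 0.00399), which was 0.276 without the 2 farthest arrays and 0.42 over the 46.

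Among all genes that are no members, the 10 most like Cd74 by this r were Itgb7 (r = 0.931), Glipr1 (0.922), Fcgr1a (0.883), Arhgap45 (0.874), Igsf6 (0.867), Bcl2a1 (0.862), Tyrobp (0.855), Myo1f (0.846), Fcgr2b (0.845) and Il1b (0.845). Itgb7 encodes a leukocyte integrin chain, Fcgr1a and Fcgr2b encode Fc receptors of myeloid and B cells, and Tyrobp encodes an adaptor of myeloid and natural killer cells. Of these 10, 5 were again among the first 10 over the 46 arrays and 4 after quantile normalization. They were picked for their r out of all tested probes, so no p is given.

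The genes most like the first RT1-Bb probe were of another kind. They were RT1-CE3, RT1-CE16, RT1-CE15, RT1-CE2, Tapbp, RT1-A1, RT1-S2, Gpsm3, C1qtnf7 and Prim2, of which the first 8 lie on chromosome 20, as the class II genes of the RT1 complex do. The RT1-CE, RT1-A and RT1-S genes encode MHC class I molecules, which can share sequence, so a probe may read several of them, and Tapbp encodes tapasin, which loads class I molecules. RT1-CE15 lay between -5.89 and -4.04 on the 5 arrays that were dim at the first RT1-Bb probe, and between -4.25 and -1.48 on the 43 others. RT1-CE3 lay between -5.94 and -2.13 on the 5, and between -2.99 and -0.03 on the 43. RT1-CE16 lay between 0.39 and 1.34 on the 5, and between 1.03 and 3.90 on the 43. The ranges of these 3 genes overlapped in part. Others of the 10 did not set these arrays apart: RT1-S2 lay between 1.98 and 2.55 on the 5, inside its range of 1.64 to 3.97 on the 43, and C1qtnf7 lay between -2.88 and -2.35, inside -4.40 to -1.49. A pooled r is not given because the arrays fall into clusters. Of the 10 genes, 7 were again among the first 10 over the 46 arrays and 8 after quantile normalization.

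The other genes of the class II pathway were taken as a list of 16, with a probe for 15 of them and 14 tested. Over the 12 tested comparisons, 4 calls were higher and 1 was lower. These concerned Creb1 and Nfyb, which encode factors that bind class II promoters and many others. Creb1 was higher in 13-month than in 4-month controls, by 1.13 on the log2 scale (limma adjusted p = 0.00126), and lower in adults 9 months after 50 kBq than in the 13-month controls, by -1.21 (adjusted p = 0.00437), and both comparisons hold the same 3 control arrays. Nfyb was higher in 13-month controls by 0.85 (adjusted p = 0.00393). Both genes also had a rising slope on age in controls. With 1 array left out in turn, these slope calls were kept in 10 of 14 fits for Creb1 and in 3 of 14 for Nfyb. These calls were not kept with each array left out in turn: in each of the 3 comparisons of 2 groups the call was lost without replicate 1 or without replicate 2 of the 13-month controls, with Creb1 then between 0.96 and 1.45 and Nfyb between 0.79 and 0.93 in 13-month against 4-month controls over all arrays left out in turn, and Creb1 between -1.52 and -1.04 in adults at 9 months. Without replicate 1 of the 4-month controls both calls of age were lost as well, without replicate 4 that of Nfyb, and without replicate 1 or 2 of the exposed adults that of Creb1 at 9 months. All 3 calls were lost with the groups of the comparison fitted alone, and that of Creb1 in adults also with the scan date as a block. The remaining 12 genes passed in none of the 12 comparisons, among them Ctsl and Ifi30, which process proteins for presentation. Over the 5 tested exposure comparisons Ctsl had log2 fold changes from -0.93 to 0.12 and Ifi30 from -0.40 to 0.51. The median of the list lay between -0.08 and 0.25 in these 5, where that of all probes lay between -0.14 and 0.30.

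Lists of related function and of cell types held few calls. In the MHC class I list, of which 24 genes were tested, RT1-M2 was higher in 13-month than in 4-month controls (log2 fold change 2.83, limma adjusted p = 0.00558) and had a rising slope, and no other gene was called. In the lists of costimulation (5 genes tested, with Cd40 and Cd274 the brightest), the interferon gamma response (15 genes, with Ifngr1 among the brightest), macrophages (11 genes, with Lyz2 and C1qb), dendritic cells (7 genes, with Cd83 and Fscn1), B cells (7 genes, with Pax5 and Fcrla), T cells (11 genes, with Cd3d and Zap70) and pan-leukocyte genes (4 genes, with Laptm5 and Coro1a), 0 genes were called in the 12 comparisons. The same was true of the lists for thymus (2 genes tested, Foxn1 and Rag1), lymph node stroma (5, with Ccl21 and Ccl19), follicular thyrocytes (12, with Tg among the brightest), parathyroid (3, with Pth and Casr), squamous epithelium (7, with Tp63 and Krt15), adipocytes (3, with Adipoq and Cidec) and cartilage (4, with Comp and Col2a1). Of the 5 skeletal muscle genes, with Ckm and Mb the brightest, Myh7 was lower in 13-month than in 4-month controls (log2 fold change -7.43, adjusted p = 0.00614), where the median of the list was -2.33. The calls of RT1-M2 and Myh7 were also lost without replicate 1 or 2 of the 13-month controls and without replicate 1 or 4 of the 4-month controls, with log2 fold changes from 2.64 to 3.13 and from -9.91 to -6.15 over the arrays left out. With normexp background correction both calls were lost too, with 1.15 for RT1-M2 and -5.87 for Myh7, as they were with the groups alone, and that of Myh7 also with the replicate number as a block. The class II members had a median of 0.03 in that comparison, and all probes 0.19.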

How the data were processed

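RNA from the thyroids of 49 rats in 13 groups was hybridised to Agilent rat arrays in a single colour. For each spot the authors deposited the processed intensity of Agilent Feature Extraction, background-subtracted and not scaled between arrays, with its median and background intensity and marks for spots well above background, saturated spots and outliers. The submitters' processing notes name Partek, and the study's methods name other software for the test. A further deposited table holds only fold changes of the authors' own comparisons and was not used.

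After removal of control and outlier spots, log2 signals were scaled by subtracting the array's 75th percentile, and repeated spots of a probe were averaged. RefSeq accessions gave a symbol to 17998 of 30367 probes. Signal above background was required on 3 or more of 49 arrays, and the 25284 remaining probes were fitted in limma 3.58.1 (R 4.3.3) with 1 mean per group and 2.22 estimated prior degrees of freedom. Calls needed a Benjamini-Hochberg adjusted p under 0.01 and a fold change above 1.5, without a fold for slopes. The fit was tested on simulated data. Correlations used deviations from group means with 100000 permutations, two-sided, in Python 3.11.15 with numpy 2.4.6, scipy 1.17.1 and pandas 2.3.3, and plots matplotlib 3.10.9. The r within the ranges of the RT1-Bb probe difference used levels and no permutations. The 17 lists held 168 genes, with a probe for 150 and 139 tested. Members and lists were chosen with earlier results of these data known. The text names each member probe, the 10 genes most like Cd74 and the 10 most like RT1-Bb probe A_44_P552452, and of each list the called genes or the 2 brightest, of which some are not reported here.

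Replicate numbers come from the sample titles. Deviations of same-numbered arrays correlated over probes between 0.137 and 0.33 in the 3 pairs of young rats at 6 months and 7-month controls, and fell below 0.1 in at least 1 pair of every other comparison. Arrays lay on 8 slides with 3 scan dates. The number of arrays limits the precision. Groups hold separate rats, so p-values measure the spread between rats. The alternatives are given with their effect in the closing section. Array weights were estimated gene by gene, because limma's default estimate did not converge. Leaving out the 3 arrays that stand apart was chosen after seeing the data.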

Additional observations from a re-analysis of the deposited data

Results flagged for a closer look

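A value was singled out where, in a group of 4 arrays, the lowest or highest lay farther from its nearest neighbour than the critical share of the whole range in Dixon's test. This was the case for 9 of the 100 combinations of a tested probe and a group of 4, or 9%, where chance gives about 5%, and the 9 values fell on 7 arrays. For RT1-Bb at A_44_P552452 they were -9.46 in the young 50 kBq group at 6 months (replicate 2, the others from 0.01 to 0.58), -9.13 in adults at 3 months (replicate 1, the others from -0.22 to 1.33) and -8.54 in 10-month controls (replicate 4, the others from -0.30 to 0.93). On the weak array, replicate 2 of the young 50 kBq group at 3 months, Ciita read -1.68 (others -6.19 to -5.61) and RT1-Da -0.72 (others 0.69 to 0.79). In adults at 6 months, replicate 4 was low for Ciita at -7.23 (others -5.88 to -5.68) and for RT1-Db1 at A_64_P134927 at 0.28 (others 1.07 to 1.21). Ciita was high at -5.46 in replicate 1 of adults at 9 months (others -5.68 to -5.66), and RT1-DMb at -0.064 in replicate 2 of the 4-month controls (others -1.37 to -1.20).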

How the results depend on the processing

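The count of member probes called was 0 in each of the 12 tested comparisons, and in the 4 at 9 months that chose the genes and are a description only, under every alternative run: quantile normalization, normexp background correction with an offset of 50, all probes kept, a stricter filter that asks for signal above background on each array of at least 1 group, slide as a random block, scan date as a block, array weights, an adjusted p under 0.05, the groups of a comparison alone, each array left out in turn, and without the 3 arrays that stand apart. With the replicate number as a block it was also 0, while the calls of Myh7 and of the age slopes of Nfyb and RT1-M2 were lost and 788 of all probes were called in 13-month controls. The lowest adjusted p of a member was 0.0162, in adults at 9 months with array weights. Calls over all probes moved more, from 141 to between 0 and 7861 in adults at 9 months and from 1302 to between 0 and 9035 in 13-month controls, the highest with array weights and 0 with the groups alone. Among the members' fold changes, 596 alternative values were counted as unchanged and 13 had the other direction, with 0 of them called. In the tested comparisons, unchanged meant only the same direction and the same call, whatever the size. Cd74 in adults at 3 months, from 0.22 to 1.12 with arrays left out in turn, was thus counted as unchanged in these fits. In the 4 comparisons at 9 months, unchanged meant a shift smaller than the SD of the controls, so a reversed sign was not counted there. For the first RT1-Bb probe this SD was 4.49, so the shift without the dim replicate 4 was also counted as unchanged. The count is therefore no measure of stable sizes. Under array weights the reversed log2 fold changes were 0.0866 for RT1-Bb at A_44_P552452 in young rats at 3 months, -0.0047 for RT1-Da and -0.18 for Cd74 in young rats at 6 months, -0.0747 for Cd74 and -0.0079 for RT1-Da in adults at 3 months, and -0.31 for Cd74 in adults at 9 months. Without the 3 arrays that stand apart RT1-Bb at A_44_P552452 in young rats at 3 months was 0.22. With arrays left out in turn, that probe ranged from -3.27 to 0.0803 in young rats at 6 months (highest without replicate 2), from -3.29 to 0.20 in adults at 3 months (highest without replicate 1) and from -0.14 to 3.02 in adults at 6 months (lowest without replicate 4 of the controls). Cd74 in adults at 9 months ranged from -0.40 (without replicate 3 of the 13-month controls, and -0.036 without replicate 1 of the adults) to 0.35, and RT1-Bb at A_64_P043911 in young rats at 3 months from -0.096 (without replicate 1 of the controls) to 0.46. The cause of these reversals was not tested, except that leaving out a dim array removes its own value. Quantile normalization shifted the median of all probes by -0.26 in young rats at 3 months. The calls of Creb1, Nfyb, RT1-M2 and Myh7 were kept in 103 and lost in 59 of their alternatives.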
